A study of Mus musculus with 28 samples.

Results

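This account covers 38 genes for complement and coagulation factors, taken by gene symbol from the 22116 named genes of the liver table and the 21797 of the kidney table; all 38 were found in both. All samples came from male mice of the genotype C57BL/KsJ db/db, in which a mutated receptor for leptin leads to obesity and diabetes. The mice were 8 weeks old at the start and were treated for 8 weeks. Treadmill training at high intensity in intervals (HIIT) comprised 10 runs of 4 min with 2 min of easier running between them, on 5 days a week. Semaglutide, a drug that activates the receptor of the gut hormone GLP-1, was injected under the skin once daily, at 30 nmol/kg by the protocol text, while the sample titles give 0.05 mg/kg. A combined group had both treatments, and the control group was sedentary. All 4 groups carried the db/db genotype and no lean group is analysed here, so the levels describe diabetic mice with and without treatment. Libraries of polyadenylated RNA number 12 for liver, 3 in each group, and 16 for kidney, 4 in each group.

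The complement system tags and lyses microbes through a chain of proteases: the lectin, classical and alternative pathways meet at C3, and the terminal components assemble into a pore. Coagulation is a second protease chain, which ends when thrombin cuts fibrinogen to fibrin, and it is held in check by anticoagulants and by fibrinolysis. Hepatocytes make most of these plasma proteins, and several of them, fibrinogen and C3 among them, are acute phase proteins, whose genes respond to interleukin 6 in inflammation. Some factors are also made locally in other organs, the kidney included.

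The fibrinogen genes Fga, Fgb and Fgg, which encode the 3 chains of one protein, and the C8a and C8b genes, for 2 chains of the C8 component of the pore, are shown here by their promoters, because for all 5 genes control 2 and control 3 were the highest of the 12 livers. That pattern held for 21 of the 37 tested members, so it does not single out these 5. C8g, for another C8 chain, did not have it (182, 157 and 119 FPKM in controls 1, 2 and 3), and its promoter is not shown. The windows run from 250 bases before the transcript start to 50 after it and are RefSeq sequence of build GRCm38.p6, 5′ to 3′ on the strand of the gene. They are chr3:83025903-83026202 (plus strand) for Fga, chr3:83049814-83050113 (minus strand) for Fgb, chr3:83007474-83007773 (plus strand) for Fgg, chr4:104876349-104876648 (minus strand) for C8a and chr4:104766067-104766366 (plus strand) for C8b. Capitals mark matches on either strand to 5 short motifs of factors known from liver genes, namely an HNF1 motif (GTTAAT), a C/EBP motif (TTGCNNAA), a STAT motif (TTCNNNGAA), a type of interleukin 6 response element (CTGGGAA) and an HNF4 motif (CAAAGTCCA).
Fga: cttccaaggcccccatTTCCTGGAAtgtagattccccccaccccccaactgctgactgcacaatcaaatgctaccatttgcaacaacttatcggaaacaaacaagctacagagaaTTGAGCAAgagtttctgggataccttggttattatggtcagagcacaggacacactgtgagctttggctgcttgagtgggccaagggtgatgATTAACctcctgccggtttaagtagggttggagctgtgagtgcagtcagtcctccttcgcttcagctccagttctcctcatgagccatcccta
Fgb: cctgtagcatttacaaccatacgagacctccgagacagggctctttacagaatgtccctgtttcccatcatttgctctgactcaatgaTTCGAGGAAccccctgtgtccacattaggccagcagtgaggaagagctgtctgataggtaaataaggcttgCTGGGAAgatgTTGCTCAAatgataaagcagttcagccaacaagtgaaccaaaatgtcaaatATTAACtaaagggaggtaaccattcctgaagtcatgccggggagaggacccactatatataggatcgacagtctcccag
Fgg: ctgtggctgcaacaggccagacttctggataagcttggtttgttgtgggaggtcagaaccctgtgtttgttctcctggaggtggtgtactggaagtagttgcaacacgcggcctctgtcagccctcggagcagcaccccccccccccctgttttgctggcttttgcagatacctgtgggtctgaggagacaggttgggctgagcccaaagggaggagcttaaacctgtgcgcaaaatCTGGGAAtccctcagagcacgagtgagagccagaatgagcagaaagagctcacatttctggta
C8a: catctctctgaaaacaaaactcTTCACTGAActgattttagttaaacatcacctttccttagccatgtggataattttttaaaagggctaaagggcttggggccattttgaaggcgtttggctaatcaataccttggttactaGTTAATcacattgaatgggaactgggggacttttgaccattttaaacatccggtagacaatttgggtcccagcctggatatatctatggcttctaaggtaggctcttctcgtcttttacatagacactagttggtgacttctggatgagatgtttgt
C8b: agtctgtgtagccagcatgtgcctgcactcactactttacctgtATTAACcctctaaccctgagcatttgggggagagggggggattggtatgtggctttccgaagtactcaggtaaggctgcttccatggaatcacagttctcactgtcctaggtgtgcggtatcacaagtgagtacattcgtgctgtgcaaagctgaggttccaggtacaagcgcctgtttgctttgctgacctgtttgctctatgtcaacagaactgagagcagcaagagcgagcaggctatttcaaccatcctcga

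Counting the transcript start as 0, the Fga window held the STAT motif at -234, the C/EBP motif at -135 and the HNF1 motif at -43. Fgb held the STAT motif at -162, the interleukin 6 element at -91, the C/EBP motif at -80 and the HNF1 motif at -29, while Fgg held the interleukin 6 element alone, at -13. C8a held the STAT motif at -228 and the HNF1 motif at -107, and C8b the HNF1 motif alone, at -206. None of these 5 motifs overlapped another in the windows shown. Of the 38 members, 29 had a window in the RefSeq table. The HNF1 motif was in 8 of the 29, against 7.1% of the 32851 windows of all genes, the C/EBP motif in 9 (10.8% of all), the STAT motif in 6 (8.3%), the interleukin 6 element in 5 (11.1%) and the HNF4 motif in 0 (0.475%). No motif was found for 10 of the 29 members, C8g among them. A match is a description of these letters, not a bound site. In that annotation the starts of Fgg and Fga lie 18.4 kb apart on chromosome 3, those of Fga and Fgb 23.7 kb, and those of C8b and C8a 110.1 kb on chromosome 4.

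Levels are given in FPKM, fragments per kilobase of transcript scaled to library size, which allow genes to be compared per length. In liver, 37 of the 38 members reached at least 1 FPKM in at least 3 libraries and were tested. Fga (mean of the 12 libraries 1965 FPKM) and Fgg (1709), C3 (1436), the hub of complement, and Kng1 (1013), the kininogen gene, averaged over 1000 FPKM. In all, 22 members averaged over 100 FPKM, and the lowest tested were C6 (11.4 FPKM), a pore component, F11 (12.95), the factor XI gene, and Pros1 (12.97), for protein S. Cfd, which encodes factor D and is known as the adipocyte product adipsin, was the member not tested: it was at 19.4 FPKM in library semaglutide 2 and at no more than 0.449 in the other 11.

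In kidney, 17 members were tested. Highest were Cfb (mean of the 16 libraries 79.9 FPKM), for factor B of the alternative pathway, C3 (50.8) and Proc (48.8), for the anticoagulant protein C. Serping1 (43.9), for the C1 inhibitor, Fgg (34.4), Serpinf2 (33.4), for the plasmin inhibitor, F13b (30.5), for the carrier subunit of factor XIII, Fga (22.8), C2 (18.2) and C8g (10.4) also averaged over 10 FPKM. These means include control 1, which held C3 at 421 FPKM, Serping1 at 221, Fgg at 164 and Fga at 104.5. In the other kidneys C3 was at 7.97 to 79.8 FPKM, Serping1 at 23.4 to 43.3, Fgg at 6.84 to 88.3 and Fga at 3.36 to 43.5. The order by mean therefore leans on that library, in which Proc was at its lowest (32.5 FPKM). Of the 21 members that were not tested, 13 stayed under 1 FPKM in every kidney library, and Hc, for C5, and F2, for prothrombin, were listed at 0 in all 16. The fibrinogen chains were unequal in kidney. The ratio of Fgb to Fgg was 0.494 to 0.607 in the 12 liver libraries but 0 to 0.0862 in the 16 kidney libraries, whereas Fga to Fgg was 1.07 to 1.23 in liver and 0.491 to 0.911 in kidney. C8b was likewise at no more than 0.0861 FPKM in every kidney library, where C8a was at 0.15 to 3.07 FPKM and C8g at 5.68 to 14.3. Fgg, C8a and C8g each share bases with an opposite-strand gene (Gm30097, Gm17662 and Fbxw5, in that order). The part of those genes in these levels and ratios was not tested, so the inequality of the chains is that of the listed values. The 2 tables were made separately, so levels in liver and kidney are set side by side only.

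**Figure D1:**
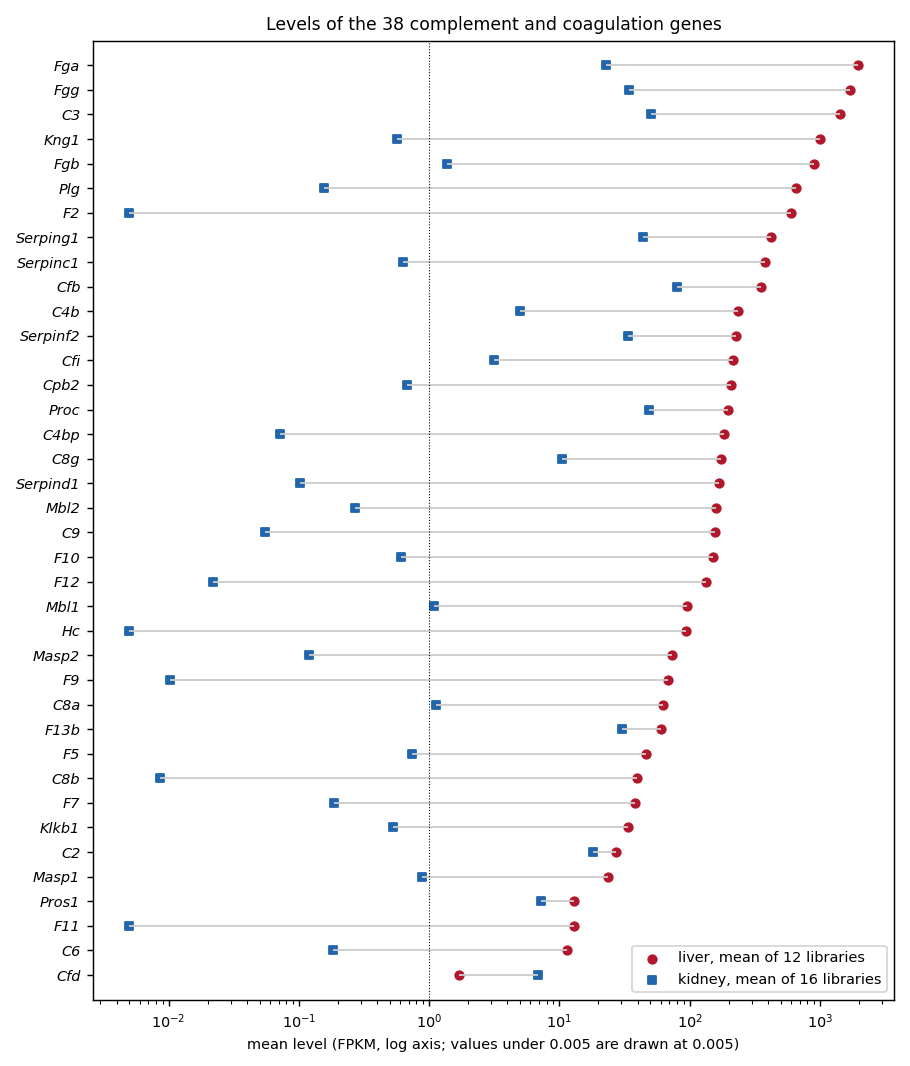
Mean level of each of the 38 members in liver (circles, 12 libraries) and kidney (squares, 16 libraries), in FPKM on a log axis. The dotted line is 1 FPKM; Fga, Fgg, C3 and Kng1 lie above 1000 FPKM in liver, no member reaches 100 FPKM in kidney, and Cfd alone has the higher mean in kidney.

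Some libraries stood apart in other genes, and many members differed in the same libraries. In liver, control 2 and control 3 held the acute phase gene Saa1 at 15500 and 26100 FPKM, against 2510 in control 1 and 221 to 2910 in the 9 treated livers, and the median of 17 acute phase genes was 10.35 and 10.83 on the log2(FPKM + 1) scale, against 7.85 in control 1 and 7.43 to 8.31 in the treated. Alb was 15300 and 8820 FPKM there, 27500 in control 1 and at least 27300 in the treated livers other than semaglutide 2 (15300). Semaglutide 2 held Acta1, a skeletal muscle transcript, at 3900 FPKM, Adipoq, an adipocyte transcript, at 137 and Jchain, a plasma cell transcript, at 310, against at most 0.138, 0.0688 and 1.1 in the other livers, and its median of 14 hepatocyte genes was 10.16, the lowest of the 12 livers. In kidney, control 1 held the macrophage transcript Lyz2 at 2710 FPKM, Jchain at 1260 and Col1a1, a fibroblast transcript, at 77.8, against at most 51, 3.41 and 10.9 elsewhere. Hepatocyte markers were high in every liver and proximal tubule markers in every kidney (medians 10.16 to 11.58 and 6.89 to 8.09 on the log2(FPKM + 1) scale), and 4 of the 8 proximal tubule markers were at 0 in all livers. Whether the libraries of a group came from different animals is not in the labels, and the p-values reflect the spread among these libraries, which may be technical. In whole tissue, fewer cells of a type and less RNA per cell cannot be told apart.

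The fibrinogen genes were among the members that were highest in controls 2 and 3, which was not so for every member. Fga was at 1132, 1319 and 1550 FPKM in HIIT livers, 1703, 875 and 1131 in semaglutide livers, 1080, 1160 and 1254 in combined livers and 1357, 4573 and 6443 in control livers. Control 1 lay inside the range of the treated livers, and controls 2 and 3 lay far above it. Fgb was at 524, 626 and 724 FPKM in HIIT livers, 809, 439 and 538 in semaglutide livers, 546, 589.8 and 650.4 in combined livers and 620.3, 1960 and 2735 in control livers. Fgg was at 1057, 1219 and 1396 FPKM in HIIT livers, 1535, 821 and 1008 in semaglutide livers, 899.6, 1049 and 1123 in combined livers and 1204, 3971 and 5231 in control livers. Both other chains had the same 2 livers on top and control 1 among the treated. In 21 of the 37 tested members (56.8%) controls 2 and 3 were above the other 10 livers, against 323 of the 10348 genes tested (3.12%). In 19 of the 21 control 1 lay inside the range of the treated, as it did in 273 of the 323 genes. The 21 were Mbl1, Masp1, C2, C4b, C4bp, Serping1, C3, Cfi, Hc, C6, C8a, C8b, C9, F10, Kng1, Fga, Fgb, Fgg, Pros1, Plg and Cpb2. Semaglutide 2 was the lowest of the 12 in 33 of the 37 (89.2%, against 10.6% of all genes). The 38 members summed to 3.85% and 4.69% of the FPKM of named genes in controls 2 and 3, against 2.1% in control 1, 1.29% in semaglutide 2 and 1.79 to 2.23% in the other treated livers. The part of these tissue and acute phase differences in the results that follow was not tested, and values without the libraries are given beside them.

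**Figure D2:**
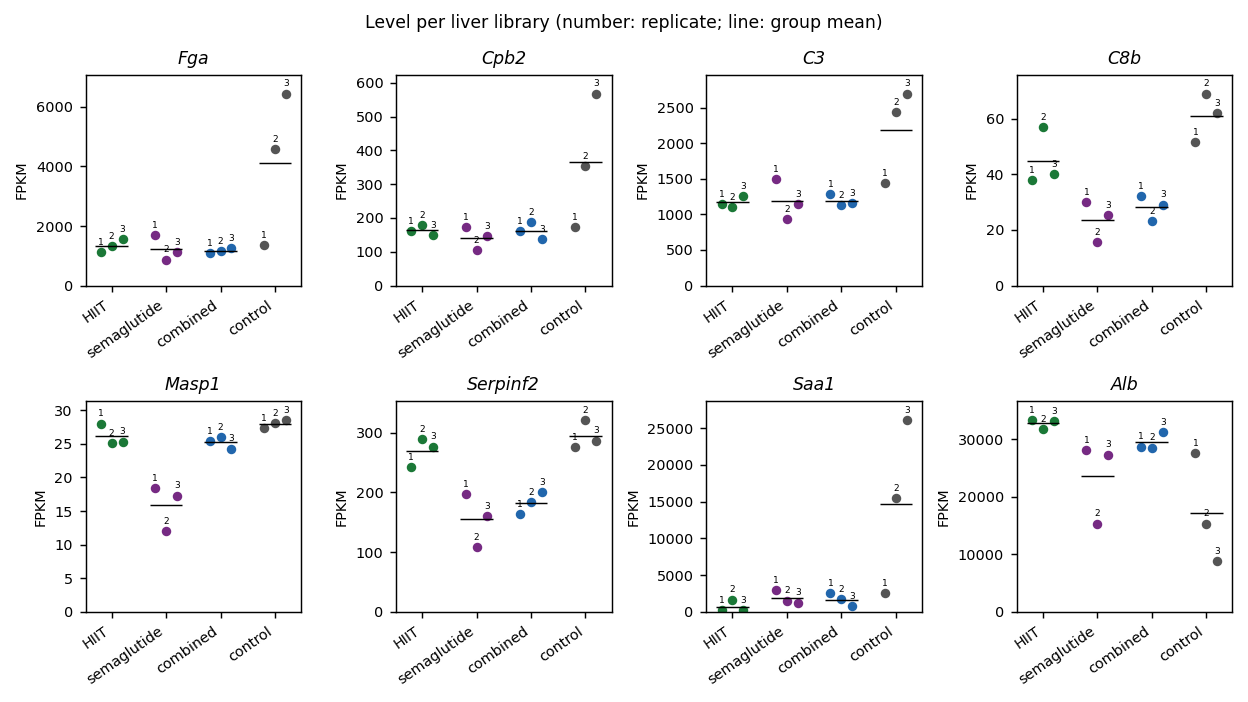
Level in FPKM of 6 members (Fga, Cpb2, C3, C8b, Masp1, Serpinf2), Saa1 and Alb in each liver library, by group, with the replicate number at each point and a line at the group mean. Fga, Cpb2, C3 and Saa1 are highest in controls 2 and 3, with control 1 near the treated livers, while Masp1 is lower in all 3 semaglutide livers than in every other liver.

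**Figure D3:**
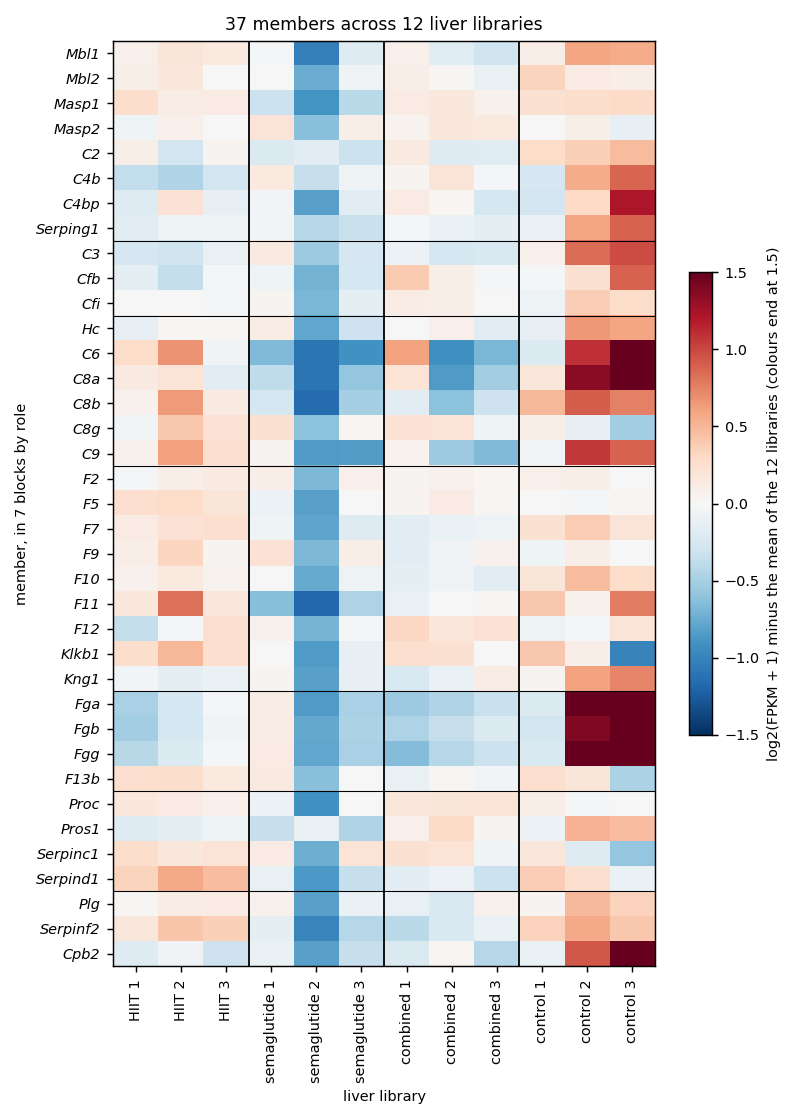
Level of the 37 tested members in the 12 liver libraries, as log2(FPKM + 1) minus the mean of the 12, in 7 blocks by role, from lectin and classical pathway at the top to fibrinolysis at the bottom. Semaglutide 2 is low (blue) in nearly all rows, and controls 2 and 3 are high (red) in the fibrinogen rows, C8a, C6, C3 and Cpb2, while Klkb1 and Serpinc1 are low in control 3.

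In the livers of semaglutide-treated and control mice, 2 members differed past the threshold. Masp1, for a protease of the lectin pathway, and C8b were lower in semaglutide livers, and they were the members of the 37 that passed the test across all genes (limma, adjusted p under 0.05). For all 10348 genes the share that passed was 0.715% in either direction and 0.464% lower. Masp1 was at 28.03, 25.1 and 25.3 FPKM in HIIT livers, 18.4, 12.04 and 17.3 in semaglutide livers, 25.45, 26.04 and 24.3 in combined livers and 27.3, 28.04 and 28.55 in control livers. All 3 semaglutide livers lay below all 3 controls, by -0.80 ± 0.14 (log2 change ± SE, limma adjusted p = 0.0343). Masp1 shares bases with 3 opposite-strand genes (Gm49514, Gm45338 and Rtp4), and their part in its values was not tested. C8b was at 37.96, 56.8 and 39.9 FPKM in HIIT livers, 30.1, 15.7 and 25.3 in semaglutide livers, 32.1, 23.3 and 29.1 in combined livers and 51.55, 68.9 and 61.9 in control livers. The groups did not overlap, and the change was -1.36 ± 0.24 (limma adjusted p = 0.0352). Neither call held with no filter on low values, with median-ratio scaling, with only these groups in the fit or with the highest transcript of each gene, when 0 members passed. Next by p-value came F11, for a protease of the contact route, and Serpinf2, neither of which passed. F11 was at 13.5, 22.1 and 13.7 FPKM in HIIT livers, 7.39, 4.78 and 8.475 in semaglutide livers, 11.1, 12.05 and 12.2 in combined livers and 16.3, 12.6 and 21.2 in control livers. Serpinf2 was at 243, 289 and 277 FPKM in HIIT livers, 197, 108.5 and 161 in semaglutide livers, 163, 184 and 201 in combined livers and 275, 321 and 287 in control livers. In both genes the semaglutide and control livers did not overlap, with changes of -1.17 ± 0.24 (limma adjusted p = 0.0595) and -0.95 ± 0.20 (adjusted p = 0.061).

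In all, 35 of the 37 members were below control in semaglutide livers, with a median log2 change of -0.62, against 0.09 over all genes. At an unadjusted p under 0.05, 26 were lower and 0 higher (6.47% and 8.79% of all genes), and in 14 the semaglutide livers lay wholly below the controls and in 0 above (6.77% and 10.2% of all genes). By role, the terminal components had a median of -1.27, with 5 of 6 below control, and fibrin genes -1.40 (4 of 4). The fibrin genes were Fga, Fgb, Fgg and F13b, and F13b had -0.15. The lectin and classical pathway had -0.66 (8 of 8), the coagulation proteases -0.31 (9 of 9) and the 3 genes of fibrinolysis -0.96 (3 of 3). The 6 genes whose proteins need vitamin K (F2, F7, F9, F10, Proc, Pros1) had -0.47, from -0.62 in F7 to -0.13 in F9. Without semaglutide 2 and control 3 the median of the 37 was -0.37, with 31 below control, and the median over all genes was -0.04. In that fit 15 members were lower at an unadjusted p under 0.05, and the share of all genes at that p is not given. In that fit Fga, Fgb and Fgg had -0.84, -0.74 and -0.81, against -1.52, -1.37 and -1.43 with all livers. C6 and C8a had -1.23 and -1.24, against -1.81 and -1.70. Masp1 then passed (-0.60, limma adjusted p = 0.0314) and C8b did not (-1.08, adjusted p = 0.0675). Without control 1 alone 255 genes passed, 13 members among them, all lower: C3, C4b, C6, C8a, C8b, C9, Cpb2, Fga, Fgb, Fgg, Masp1, Pros1 and Serping1. Without control 2, control 3 or semaglutide 3, or without any 1 HIIT or combined library, 0 passed.

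Markers of other cell types also differed among these livers. Of 5 erythroid genes, 4 were above control in semaglutide livers without overlap, with a median log2 change of 2.30, and the 5 summed to 804 to 3176 FPKM in semaglutide livers and 211 to 348 FPKM in control livers. All 8 tested of 9 macrophage genes were below control, with a median of -0.72 and sums of 42.8 to 390.2 FPKM in semaglutide livers and 55.6 to 678 FPKM in control livers. All 3 tested of 7 neutrophil genes were below control, with a median of -1.51 and sums of 2.80 to 15.1 FPKM in semaglutide livers and 0.644 to 344 FPKM in control livers. For both lists the highest sums were in semaglutide 2 and control 3, and the macrophage transcript Lyz2 was at 223 and 198 FPKM there and at 9.01 to 24.5 FPKM elsewhere. Against control, the medians with HIIT and with the combination were 1.41 and 1.48 for erythroid genes, -0.79 and -0.66 for macrophage genes and -2.03 and -1.35 for neutrophil genes. No gene of these 3 lists was at 0 in every liver. In semaglutide livers all 17 acute phase genes were also below control, with a median of -1.58, and 9 of 14 hepatocyte genes were (-0.26). All 8 tested fibroblast genes (0.79), 6 of 7 tested endothelial genes (0.60) and all 3 tested adipocyte genes (2.25) were above it. With HIIT and with the combination the medians were -1.91 and -1.16 for acute phase genes and 0.27 and -0.27 for hepatocyte genes. The part of all these lists in the members' values was not tested.

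HIIT against control gave 0 of 37 members past the limma threshold, as for all genes (0%), with 11 members lower and 0 higher at an unadjusted p under 0.05 (2.73% and 4.48% of all genes). The 11 became 15 without control 1, 4 without control 2 and 3 without control 3. The shares of all genes at that p are not given for these fits, so the counts cannot be set against them. The smallest p belonged to C3, then C2, for the protease that forms the C3 convertase, C4b, for its partner C4, and Fga. C3 was at 1141, 1105 and 1256 FPKM in HIIT livers, 1498, 937 and 1148 in semaglutide livers, 1285, 1130 and 1162 in combined livers and 1438, 2440 and 2695 in control livers. HIIT livers lay below all 3 controls, by -0.86 ± 0.25 (log2 change ± SE, limma adjusted p = 0.676). C2 was at 28.55, 21.7 and 27.6 FPKM in HIIT livers, 22.9, 23.9 and 21.2 in semaglutide livers, 29.5, 23.3 and 23.6 in combined livers and 32.5, 34.5 and 37.5 in control livers. C4b was at 175, 167 and 187 FPKM in HIIT livers, 252, 178 and 217.5 in semaglutide livers, 234, 261 and 222.5 in combined livers and 190.4, 334 and 417 in control livers. Both genes were also lower in every HIIT liver than in every control, by -0.42 ± 0.13 and -0.76 ± 0.25 (limma adjusted p = 0.676 each). Reads of C4b may be shared with the near-identical C4a, which was at 6.39 to 21.5 FPKM in liver. For Fga the change was -1.37 ± 0.47 (limma adjusted p = 0.682), and the groups overlapped because control 1 (1357 FPKM) lay within the HIIT range.

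Across the 37 members, 27 were below control in HIIT livers, with a median of -0.22 (0.05 over all genes). The median was -0.33 without control 1, -0.14 without control 2, -0.15 without control 3, -0.13 with mitochondrial transcripts removed and -0.40 with the highest transcript of each gene. In 5 the HIIT livers lay wholly below the controls and in 1, F5, above (5.7% and 11% of all genes). Values went both ways by role: the anticoagulants had a median of 0.19, with 3 of 4 above control, and the coagulation proteases -0.03, with 4 of 9 above. The fibrin genes had -1.27, with F13b above control (0.235). Without control 3, Fga, Fgb and Fgg had -0.91, -0.83 and -0.85. Without control 1 they had -2.04, -1.90 and -1.91, and 106 genes passed, 7 members among them, all lower (C3, C4b, Cpb2, Fga, Fgb, Fgg and Serping1).

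Combined treatment against control likewise gave 0 of 37 members past the limma threshold, where 0.309% of all genes passed. At an unadjusted p under 0.05, 15 members were lower and 0 higher (4.12% and 8.11% of all genes). C8b, at the values above, was lower in every combined liver than in every control, by -1.08 ± 0.24 (limma adjusted p = 0.103). C8a was at 58.4, 61.3 and 47.6 FPKM in HIIT livers, 40.45, 24.2 and 35.1 in semaglutide livers, 61.2, 28.9 and 36.7 in combined livers and 59.7, 137 and 154.5 in control livers. Its change was -1.40 ± 0.36 (limma adjusted p = 0.15), with combined 1 just above control 1. Serpinf2 and C2 did not overlap with control either, with changes of -0.69 ± 0.20 (limma adjusted p = 0.183) and -0.44 ± 0.13 (adjusted p = 0.195).

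Of the 37 members, 30 were below control in combined livers, with a median of -0.38 (0.05 over all genes). In 12 the combined livers lay wholly below the controls, and in 1, Proc, wholly above (6.23% and 13.8% of all genes). The fibrin genes had a median of -1.42, with F13b at -0.03, the terminal components -1.05 and the coagulation proteases -0.05. Without semaglutide 2 and control 3, 310 of all genes passed, 3 members among them, all lower: C8b (-1.07, limma adjusted p = 0.0278), Serpinf2 (-0.70, adjusted p = 0.0328) and F7, for the starter protease of coagulation (-0.42, adjusted p = 0.0481). Leaving out semaglutide 2 alone gave 181 genes and 2 members, C8b and Serpinf2. Without control 1, 199 genes passed, 7 members among them, all lower: C3, C8a, Cpb2, Fga, Fgb, Fgg and Serping1. The 3 comparisons share their control livers, so a change that rests on controls 2 and 3 enters all of them.

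**Figure D4:**
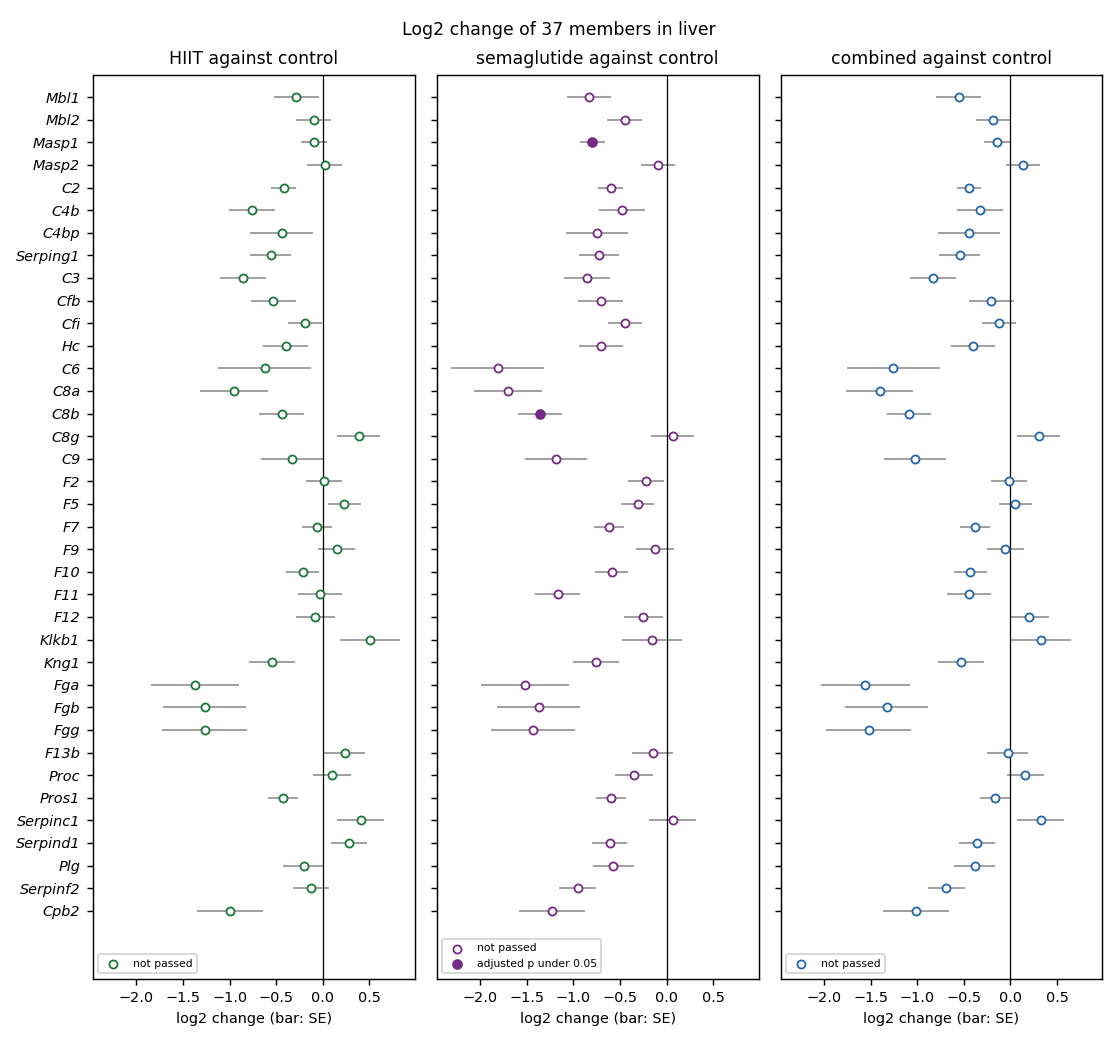
Log2 change in FPKM + 1 (points, bars: SE) of the 37 tested members in liver for HIIT, semaglutide and combined treatment, each against the same 3 control livers. Filled points passed the test across all genes: Masp1 and C8b in the semaglutide panel.

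Comparisons between treated groups use the controls in the shared estimate of spread alone. Combined against HIIT livers had 0 of 37 members past the limma threshold (0.116% of all genes), and 3 were lower at an unadjusted p under 0.05 (5.75% of all genes; 0 higher, against 6.22%). Serpind1 was at 205, 239.7 and 224 FPKM in HIIT livers, 149.8, 89.01 and 127 in semaglutide livers, 145.5, 153 and 129 in combined livers and 210.1, 192 and 151 in control livers. Serpind1 encodes heparin cofactor II, a thrombin inhibitor, and all combined livers lay below all HIIT livers, by -0.64 ± 0.19 (log2 change ± SE, limma adjusted p = 0.199). With the highest transcript of each gene in place of the sum, it was -0.22 (limma adjusted p = 0.834). Its other transcript made up 48.7 ± 18.1% of the gene's FPKM in combined livers and 63.0 ± 0.272% in HIIT livers (SD, n = 3 each). Serpinf2, at the values above, was also lower without overlap (-0.56 ± 0.20, limma adjusted p = 0.282), and so were C8b (-0.64 ± 0.24, adjusted p = 0.311) and C9, the chain that completes the pore (-0.69 ± 0.33, adjusted p = 0.444). C9 was at 150.3, 222 and 169.9 FPKM in HIIT livers, 148, 79.5 and 80.2 in semaglutide livers, 149, 98.2 and 90.6 in combined livers and 141, 302 and 267 in control livers. By its highest transcript C9 had -0.46. Without semaglutide 2 and control 3, neither of them a library of the groups compared, 772 of all genes passed, Serpind1 and Serpinf2 among them (limma adjusted p = 0.0121 and 0.0307). The median over the members was -0.08 (0.02 over all genes), with 11 lower and 5 higher without overlap (14.5% and 17.3% of all genes). The 5 higher were C4b, Cfb, Cfi, Proc and Pros1.

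Combined against semaglutide livers had 0 of 37 past the limma threshold, as for all genes (0%), with 4 members higher and 0 lower at an unadjusted p under 0.05 (5.29% and 2.56% of all genes). Masp1 was higher in every combined liver than in every semaglutide liver, by 0.66 ± 0.14 (log2 change ± SE, limma adjusted p = 0.296). F11 was higher without overlap by 0.73 ± 0.24 (limma adjusted p = 0.471). Pros1 was at 10.95, 11.5 and 12.1 FPKM in HIIT livers, 9.77, 11.7 and 8.99 in semaglutide livers, 13.4, 15.7 and 13.1 in combined livers and 11.9, 18.7 and 17.8 in control livers. Proc was at 217, 211 and 205 FPKM in HIIT livers, 182.5, 103 and 195 in semaglutide livers, 219, 221 and 221.5 in combined livers and 208, 191 and 193 in control livers. Pros1 and Proc, both anticoagulants, were higher without overlap by 0.43 ± 0.16 and 0.51 ± 0.20 (limma adjusted p = 0.537 and 0.548). Proc had 0.22 without semaglutide 2 and 0.08 by its highest transcript. In 7 members the combined livers lay wholly above the semaglutide livers and in 0 below (8.45% and 5.31% of all genes): Masp1, Cfb, F5, F11, F12, Proc and Pros1. The median was 0.25, with 35 of 37 above, and 0.03 without semaglutide 2, when Masp1 had 0.48.

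The interaction asks whether the combined change differed from the sum of the changes with HIIT and with semaglutide. In liver it had 0 of 37 members past the limma threshold (0.00966% of all genes), with 11 positive and 0 negative at an unadjusted p under 0.05 (4.55% and 4.06% of all genes). The smallest p belonged to Masp1 (0.75 ± 0.20, limma adjusted p = 0.42), Pros1 (0.86 ± 0.23, adjusted p = 0.42), C2 (0.57 ± 0.19, adjusted p = 0.526) and Cfb (1.03 ± 0.34, adjusted p = 0.526). Cfb was at 312, 268 and 340.0 FPKM in HIIT livers, 327, 211 and 285 in semaglutide livers, 451, 365.5 and 341 in combined livers and 338, 402 and 633 in control livers. Without semaglutide 2 and control 3, Cfb had 0.60. Of the 37, 31 were positive, with a median of 0.56 (-0.08 over all genes), and 0.22 without semaglutide 2 and control 3. The 3 controls enter this value as well.

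In liver, 5 further members with an unadjusted p over 0.1 for each treatment against control are given by their means. F2 averaged 629.9 ± 34.9 FPKM in HIIT, 551 ± 151 in semaglutide, 617 ± 7.71 in combined and 625 ± 18.7 in control livers (SD, n = 3 each). Its log2 changes were 0.01 ± 0.19, -0.22 ± 0.19 and -0.02 ± 0.19 with HIIT, semaglutide and the combination. F9, for the factor missing in haemophilia B, averaged 75.5 ± 8.01 FPKM in HIIT, 64.2 ± 19.7 in semaglutide, 65.4 ± 5.04 in combined and 67.9 ± 3.83 in control livers (SD, n = 3 each). Masp2, for the second lectin pathway protease, averaged 72.9 ± 3.68 FPKM in HIIT, 69.3 ± 19.65 in semaglutide, 78.99 ± 3.20 in combined and 72.1 ± 5.28 in control livers (SD, n = 3 each). Serpinc1, for antithrombin, averaged 432 ± 14.7 FPKM in HIIT, 354 ± 113 in semaglutide, 409.8 ± 44.2 in combined and 333 ± 85.1 in control livers (SD, n = 3 each), with control 3 the lowest control (251 FPKM). Klkb1, for plasma prekallikrein, averaged 41.5 ± 4.13 FPKM in HIIT, 26.5 ± 7.89 in semaglutide, 36.4 ± 3.505 in combined and 31.3 ± 14.1 in control livers (SD, n = 3 each), and was at 15.7 FPKM in control 3 and at 43.2 and 34.97 FPKM in controls 1 and 2. None of these 5 passed in any liver comparison, which does not show that they were equal.

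In kidney, 0 of the 17 tested members passed the limma threshold in any comparison, where 0% of all 11551 genes passed for HIIT against control, 0.00866% for semaglutide, 0% for combined, 0.00866% for combined against HIIT, 0.00866% for combined against semaglutide and 0% for the interaction. At an unadjusted p under 0.05 the members called were 0 with HIIT, 0 with semaglutide and 2 with the combination, against 12.5%, 3.32% and 2.99% of all genes. They were 1 for combined against HIIT, 1 for combined against semaglutide and 0 for the interaction (5.94%, 1.14% and 3.95% of all genes). C8a had the smallest p. C8a was at 0.846, 1.14, 1.33 and 0.284 FPKM in HIIT kidneys, 1.18, 1.99, 0.612 and 0.477 in semaglutide kidneys, 1.45, 1.77, 3.07 and 1.725 in combined kidneys and 0.150, 0.612, 0.802 and 0.648 in control kidneys. All 4 combined kidneys lay above all 4 controls, by 0.94 ± 0.25 (log2 change ± SE, unadjusted p = 0.00132, limma adjusted p = 0.691), and also above all 4 HIIT kidneys (0.67 ± 0.25, limma adjusted p = 0.785). Against semaglutide kidneys, which overlapped, it was 0.57 ± 0.25 (adjusted p = 1). These levels are near the 1 FPKM filter, and with a pseudocount of 0.1 the change against control was 1.78. C8a shares bases with the opposite-strand gene Gm17662, whose part in these values was not tested. C8a was the 1 member higher than control without overlap in combined kidneys (1.46% of all genes), and 0 were lower (2.49%). Serpinf2 was the 1 member lower at an unadjusted p under 0.05 in combined kidneys (1.63% of all genes). Serpinf2 was at 19.45, 25.6, 39.6 and 40.2 FPKM in HIIT kidneys, 35.5, 21.2, 38.4 and 24.95 in semaglutide kidneys, 21.4, 22.4, 38.5 and 25.7 in combined kidneys and 38.25, 30.15, 59.3 and 53.9 in control kidneys. The combined and control kidneys overlapped, with a change of -0.72 ± 0.28 (limma adjusted p = 0.994). With HIIT and with semaglutide Serpinf2 had -0.54 ± 0.28 (limma adjusted p = 0.378) and -0.57 ± 0.28 (adjusted p = 0.913).

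C3, Fga and Fgg were high in a few kidney libraries. C3 was at 7.97, 9.96, 15.3 and 79.8 FPKM in HIIT kidneys, 29.55, 27.9, 50.2 and 27.3 in semaglutide kidneys, 33.1, 36.00, 24.2 and 19.8 in combined kidneys and 421, 11.35, 10.45 and 8.80 in control kidneys. Control 1, with the macrophage, plasma cell and fibroblast transcripts, and HIIT 4 (Lyz2 at 51 FPKM and Col1a1 at 10.9) stood above their groups. Fga was at 3.36, 5.39, 10.8 and 43.5 FPKM in HIIT kidneys, 24.8, 21.45, 30.05 and 14.01 in semaglutide kidneys, 24.5, 17.9, 31.6 and 9.19 in combined kidneys and 104.5, 6.44, 8.66 and 8.705 in control kidneys. Fgg was at 6.84, 8.52, 21.1 and 88.3 FPKM in HIIT kidneys, 36.4, 25.1, 39.2 and 19.7 in semaglutide kidneys, 31.2, 19.7, 39.4 and 12.8 in combined kidneys and 164, 12.3, 14.65 and 10.9 in control kidneys. Control 1 was the highest of the 16 in 10 of the 17 members (58.8%, against 37.6% of all genes): Masp1, C2, C4b, Serping1, C3, Cfb, Cfi, Fga, Fgg and Pros1. HIIT 4 was the highest of the other 15 in 5 of the 17 (29.4%, against 39.5% of all genes), namely Masp1, C3, Fga, Fgg and Pros1. With all 16 kidneys C3 had log2 changes of -0.54 ± 0.91, 0.28 ± 0.91 and 0.04 ± 0.91 with HIIT, semaglutide and the combination. Without control 1 and HIIT 4, a choice made after the values were seen, 5 genes passed for semaglutide against control, C3 among them (1.59, limma adjusted p = 0.0331). Every semaglutide and combined kidney then lay above the 3 remaining controls and the 3 remaining HIIT kidneys. When semaglutide 4 was left out too, 0 genes passed for semaglutide against control, so the C3 call was lost, while 1037 genes passed for combined against HIIT, C3 (1.28) and Fga (1.54) among them (limma adjusted p = 0.0402 each). With all 16 kidneys Fga had 0.86 there, and 0.42 without HIIT 1. The part of the other cell types' transcripts in these values was not tested.

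In each of the other kidney members, the groups overlapped in every comparison with control. C2 was at 13.5, 9.85, 17.4 and 19.7 FPKM in HIIT kidneys, 21.35, 10.8, 20.6 and 17.2 in semaglutide kidneys, 15.02, 19.8, 18.3 and 12.01 in combined kidneys and 38.8, 16.8, 22.1 and 17.2 in control kidneys. C2 had -0.58 ± 0.28 with HIIT (limma adjusted p = 0.378), -0.38 ± 0.28 with semaglutide and -0.46 ± 0.28 with the combination, and groups overlapped in each. Without control 1 these were -0.32, -0.13 and -0.20. Pros1 was at 5.02, 4.94, 5.28 and 12.8 FPKM in HIIT kidneys, 7.14, 4.63, 5.65 and 5.79 in semaglutide kidneys, 6.65, 7.55, 6.44 and 5.75 in combined kidneys and 18.3, 7.69, 5.07 and 6.76 in control kidneys. Pros1 was highest in control 1 and HIIT 4. Mbl1 was at 1.17, 1.31, 1.67 and 1.41 FPKM in HIIT kidneys, 0.504, 1.12, 1.01 and 1.08 in semaglutide kidneys, 0.925, 1.16, 1.22 and 0.981 in combined kidneys and 0.649, 0.741, 1.37 and 1.08 in control kidneys. Mbl1, for a mannose-binding lectin, was near the filter in all groups, with 0.30 ± 0.16 for HIIT against control (limma adjusted p = 0.381). Cfd was at 0, 0.104, 0 and 0.406 FPKM in HIIT kidneys, 4.08, 0, 0 and 78.2 in semaglutide kidneys, 7.08, 0.120, 0.861 and 0.0536 in combined kidneys and 8.44, 7.84, 2.35 and 0.384 in control kidneys. Cfd was at 78.2 FPKM in semaglutide 4, which held Adipoq at 37.2 FPKM, and Adipoq was at 0 to 5.44 FPKM elsewhere. Over the 16 kidneys F13b ranged from 12.4 to 48.1 FPKM, Cfb from 54.1 to 148 and C8g from 5.68 to 14.3. Proc, at 32.5 to 67.2 FPKM, had a change of 0.19 ± 0.20 in combined kidneys (limma adjusted p = 0.994).

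Over the 17 members the median log2 change was -0.37 with HIIT (-0.26 over all genes), 0.01 with semaglutide (-0.14) and -0.21 with the combination (-0.09). The HIIT median lies near the shift of all genes, and another scaling, by median ratios, moved the median gene by 0.264 and gave the members -0.10. Mitochondrial transcripts made up 60.5% and 58.6% of the FPKM of named genes in HIIT 1 and HIIT 2, against 23.2 to 51.0% in the other kidneys. Without control 1 and HIIT 4 the medians were -0.22, 0.18 and 0.10, and without control 1 alone 0.10, 0.18 and 0.10. Without HIIT 4 alone the HIIT median was -0.70, and over all kidneys left out 1 at a time the medians were -0.70 to 0.10, -0.26 to 0.18 and -0.40 to 0.10.

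**Figure D5:**
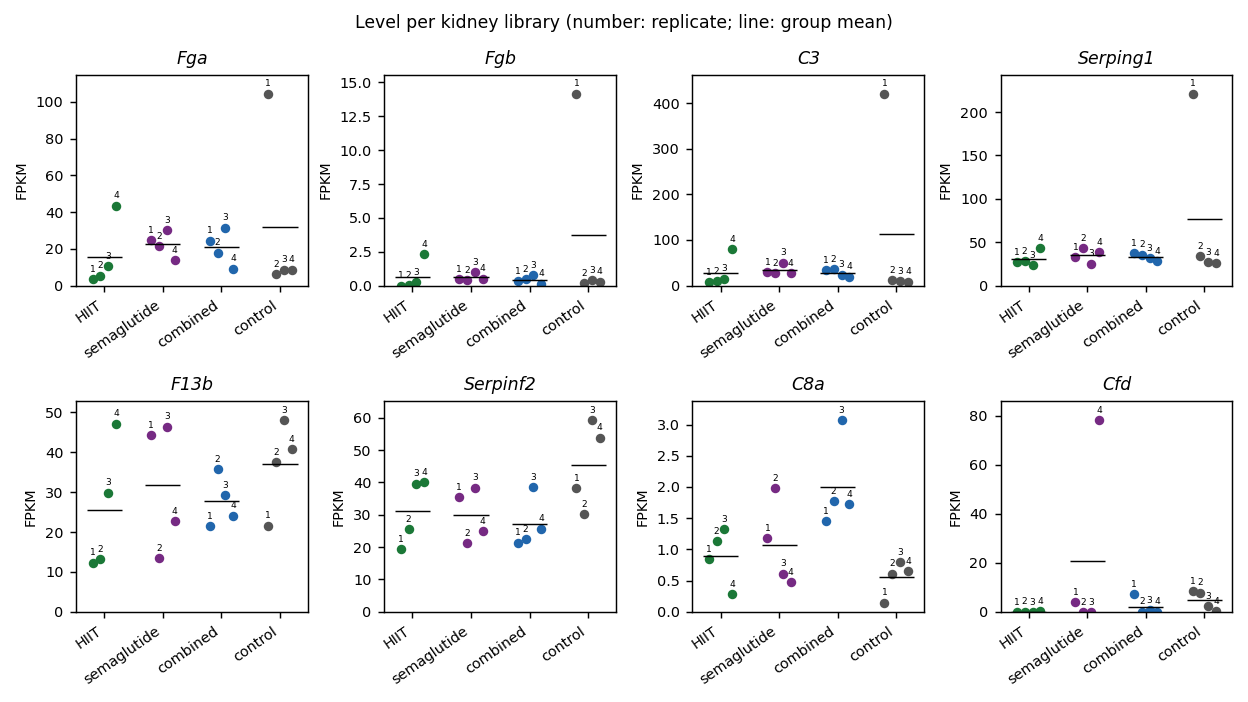
Level in FPKM of 8 members in each kidney library, by group, with the replicate number at each point and a line at the group mean. Control 1 is far above the other kidneys for Fga, Fgb, C3 and Serping1, semaglutide 4 for Cfd, and the 4 combined kidneys lie above the 4 controls for C8a.

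The change in liver was set against the change in kidney for the 16 members tested in both. For HIIT, semaglutide and combined treatment 0 of 16 passed, where 0.021%, 0% and 0.0316% of 9505 genes did, and 1, 4 and 3 were lower in liver at an unadjusted p under 0.05 (0.537%, 1.3% and 1.04% of all genes). C8a had the smallest p in each: liver minus kidney was -1.23 ± 0.44 with HIIT (limma estimates, adjusted p = 0.346), -2.08 ± 0.44 with semaglutide (adjusted p = 0.166) and -2.35 ± 0.44 with the combination (adjusted p = 0.06). Its combined change was negative in liver (-1.40) and positive in kidney (0.94), and the part of Gm17662 in either was not tested. For the combination, C8a passed without liver control 1 (-2.77, limma adjusted p = 0.00107), without liver semaglutide 2 (-2.35, adjusted p = 0.0375) and with a pseudocount of 0.1 (-3.21, adjusted p = 0.0286). Mbl1 was second in each comparison, with -0.58 ± 0.29, -0.81 ± 0.29 and -0.65 ± 0.29.

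Other genes of the same pathways were taken from lists. Among 23 tested of 29 other complement components and regulators in liver, 0 passed with HIIT, semaglutide or the combination, and 15, 16 and 18 were below control, with medians of -0.21, -0.51 and -0.28. Among 14 tested of 27 other genes of coagulation and fibrinolysis, 0 passed, with medians of 0.03, -0.09 and -0.18, and of 5 genes of the vitamin K cycle 0 passed, with medians of -0.01, -0.05 and -0.11. Among 19 liver transcription factors and signalling genes 1 passed: Nr0b2, for the repressor SHP, fell with semaglutide by 1.17 ± 0.22 on the log2 scale (limma adjusted p = 0.0441). Of all genes, 0.715% passed in that comparison. Without control 2, or with only the groups compared in the fit, 0 of all genes passed, so this call was lost. Nr0b2 had 0.67 ± 0.22 with HIIT (limma adjusted p = 0.676) and -0.43 ± 0.22 with the combination (adjusted p = 0.474). Hnf4a, for a main activator of hepatocyte genes and named here after its values were seen, had -0.16 ± 0.19, -0.51 ± 0.19 and -0.21 ± 0.19. In kidney 0 of 15 other complement genes, 0 of 16 other coagulation genes, 0 of 5 vitamin K cycle genes and 0 of 14 of these regulators passed with any treatment against control.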

How the data were processed

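The authors deposited FPKM values, per transcript for liver and per gene for kidney; counts are not used here, so depth behind a value is unknown and no counting interval is given. Build GRCm39 is given in the submitters' processing notes, with the tools StringTie 2.1.4, featureCounts 2.0.1, STAR 2.7.9a, Trimmomatic 0.36, FastQC and CASAVA but no role for any. Liver transcripts were summed by gene name. Rows with no gene name were left out (470 of 66878 in liver, 0.17 to 0.27% of the FPKM; 1853 of 23650 in kidney, 3.13 to 11.53%). Groups came from the sample labels.

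Genes were tested if at 1 FPKM or more in 3 or more livers, or 4 or more kidneys, on log2(FPKM + 1), which understates changes of low genes, with limma 3.58.1 in R 4.3.3: 1 fit per tissue over its 4 groups, p-values adjusted by Benjamini and Hochberg over all genes tested, threshold 0.05. Liver minus kidney changes used the limma estimates of both fits and treated them as independent, which was not tested. On simulated data with log2 changes of 1, 2 and 3, the fit of semaglutide against control recovered 70%, 95.8% and 98.3% in liver. It also called 18 unchanged genes there. The simulated noise was drawn for each gene separately, without shifts that many genes of a library share. Recovery in these livers, where some libraries stood apart, is therefore not given by these shares. Alternatives were another pseudocount, filter, scaling, transcript choice and set of groups, a replicate block, and libraries left out.

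The members and lists were chosen with earlier results of these data known. Values of every library are given for members that passed and, where fewer than 4 did, for those with the smallest p, up to 4 per comparison; Fgb and Fgg in liver and C3, Fga and Fgg in kidney were added after their values were seen. Of the members, 11 share bases with an opposite-strand gene: Masp1, Masp2, C2, Hc, C8a, C8g, F5, Fgg, Serpinc1, Serpind1 and Plg. With a same-strand gene 7 share bases: C2, C3, Cfb, F5, Klkb1, Serpinc1 and Cpb2. No source used here gives the strand setting of the authors' counting, so their values are uncertain. Promoter sequences are from RefSeq, build GRCm38.p6, which is not the build of the files. A result for 1 gene of the pathway lists is not reported here.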

Additional observations from a re-analysis of the deposited data

Results flagged for a closer look

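In 17 of the 68 groups of 4 kidneys formed by the 17 tested members, 1 library lay farther from the rest of its group than Dixon's 95% critical value allows. Chance gives about 1 in 20 groups, and the flags share libraries, since 6 of the 17 fell in control 1. In control 1, Serping1 was at 221 FPKM (25.6 to 34.3 in the other 3 controls), C3 at 421 (8.8 to 11.4), Fga at 105 (6.44 to 8.7), Fgg at 164 (10.9 to 14.6), C4b at 26.6 (1.09 to 3.6) and Cfi, for factor I, which cleaves C3b, at 14.8 (1.16 to 2.17).

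In HIIT 4, C3 was at 79.8 FPKM (7.97 to 15.3 in the other HIIT kidneys), Pros1 at 12.8 (4.94 to 5.28), Cfi at 6.59 (0.407 to 1.34) and Masp1 at 2.08 (0.363 to 0.557). Among the semaglutide kidneys, Masp1 was at 1.83 FPKM in semaglutide 2, C3 at 50.2 in semaglutide 3 and Cfd at 78.2 in semaglutide 4, each above the rest of the group, and C8g was at 6.12 in semaglutide 3, the 1 low value. Among the combined kidneys, Cfd was at 7.08 FPKM in combined 1 (0.0536 to 0.861 in the others), and combined 3 held C4b at 9.32 and Cfi at 8.26 (0.633 to 1.37). Liver groups have 3 libraries and could not be examined this way.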

How the results depend on the processing

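For semaglutide against control in liver, the 2 members passed also with a pseudocount of 0.1. The count was 0 with no filter on low values, with median-ratio scaling, with the replicate block, with only the groups compared in the fit and with the highest transcript of each gene. It was 1 with mitochondrial transcripts removed and 1 without control 3 and semaglutide 2. Leaving out 1 library at a time gave 0 to 13, and 0 to 7 for HIIT and for combined against control. Combined against control had 3 (of 310 genes in all) without control 3 and semaglutide 2. Combined against HIIT had 3 (of 552) with only the groups compared and 2 (of 772) without those libraries. In kidney, semaglutide against control had 1 (of 5) without control 1 and HIIT 4 and 0 (of 0) when semaglutide 4 was left out too, when combined against HIIT had 2 (of 1037). For liver minus kidney, HIIT had 1 (of 837 genes in all) without these 3 kidneys, and semaglutide 1 (of 8) without control 1 and HIIT 4 and 2 (of 8) without the 3; in these fits 15 members were tested. The combination had 1 (of 6) with a pseudocount of 0.1, 1 (of 6) with mitochondrial transcripts removed, and 2 (of 11) without either set of kidneys. Leaving out 1 library gave 0 to 1 in each of these. The cause of these moves was not tested. Of all genes, 74 passed for semaglutide in liver, against 0 to 255 with 1 library left out, and 32 for the combination, against 0 to 199. Scaling by median ratios moved the median gene by -0.106 for semaglutide in liver and, in kidney, by 0.264 for HIIT, 0.157 for semaglutide, -0.17 for combined against HIIT and -0.326 for the interaction. Of 48 member changes followed, 45 never reversed. In kidney, Cfd for combined against semaglutide was -1.13, and 0.26 without semaglutide 4, alone or with others; leaving out 1 library gave -1.85 to 0.26. Mbl1 there was -0.002 to 0.16 with 1 library left out, negative without semaglutide 1, and the Cfb interaction -0.003 with median-ratio scaling. The labels do not say that a replicate number pairs libraries, and the correlations given here cannot exclude it. Correlations of same-numbered deviations were -0.314 to 0.157 in liver (2 of 18 over 0.1) and -0.466 to 0.327 in kidney (9 of 24). For pairs with different numbers they were -0.254 to 0.31 in liver (10 of 36) and -0.52 to 0.499 in kidney (21 of 72). The best match had the same number for 0 of 12 livers and 3 of 16 kidneys. Depth is unknown without counts.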
